A study of Mus musculus with 6 samples.

Results

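TRBV21, TRBV23, TRBV24 and TRBV30 are 4 of the 23 variable (V) genes of the mouse T cell receptor β (TCR-β) chain that the deposited TCR-β repertoires list. They were chosen by the TRBV name given to each listed sequence, and every sequence with one of these names was kept, whether or not its CDR3 (complementarity-determining region 3) carries a * or . mark. The 4 genes held 1879 of 220493 listed sequences and 4882 of 525567 reads. Of those reads, 3678 were unmarked and 1204 marked. C57BL/6 mice had received MO4 cells, an ovalbumin-expressing B16F10 melanoma line, subcutaneously in the right and in the left hindlimb (100000 cells a site, day 0). The right tumor was injected next to the tumor with IFN-α-iPSC-pMCs (1000000 each time), which are myeloid cells that were derived from pluripotent stem cells and make interferon-α. It received them on days 5 to 7, 12 and 13, and RNA was taken on day 14. The 3 groups are the treated right tumor, the distant left tumor of the same animals, which was not injected, and the spleen, with 2 libraries each numbered 1 and 2. The series describes 2 mice, so each number was taken as 1 mouse. All 3 tissues of a mouse share its tumors and its treatment, none of the 6 libraries is labelled as from an untreated animal, and the labels give no age. The files hold TCR-β sequences only, so the labelled tissues could not be checked against other markers.

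A TCR-β chain is assembled in the thymus by joining 1 V, 1 diversity (D) and 1 joining (J) gene. Bases are trimmed and added at the junctions, so many joins are out of frame or hold a stop codon. The CDR3 runs from a conserved cysteine at the end of the V gene to a conserved phenylalanine in the J gene, and it is the stretch that differs most between T cells and touches the presented peptide. A V gene whose own coding sequence is broken can still be joined and transcribed, but it gives no receptor chain. A T cell with such a join on 1 chromosome can live on a working join on the other.

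In the GENCODE M21 annotation (GRCm38) the 4 genes lie on the plus strand of chromosome 6. TRBV21 (Trbv21, ENSMUSG00000076477.3) spans 41202550 to 41203044, TRBV23 (Trbv23, ENSMUSG00000076478.7) 41216073 to 41216526, TRBV24 (Trbv24, ENSMUSG00000102955.1) 41218091 to 41218557 and TRBV30 (Trbv30, ENSMUSG00000076481.7) 41281376 to 41281990. TRBV21, TRBV23 and TRBV24 follow each other among the 23 listed genes, between TRBV20 and TRBV26. TRBV30 lies further on, between TRBV29 and TRBV31. TRBV24 was the only 1 of the 23 genes annotated as a V pseudogene, and the only 1 of 23 whose V exon holds a stop codon in the frame of the conserved cysteine. The ends of the V exons are shown because they carry the cysteine codon with which the CDR3 begins and, in TRBV24, that stop. Capitals mark the cysteine codon (TGT or TGC) and the stop codon (TAG). The 38 bases of each were taken from the GENCODE M21 transcripts, plus strand. Each stretch ends 14 bases from the start of the cysteine codon, which is 3 bases before the end of the exon in TRBV21, TRBV23 and TRBV24.
TRBV21, chr6:41203004-41203041: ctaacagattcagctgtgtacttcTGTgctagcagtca
TRBV23, chr6:41216486-41216523: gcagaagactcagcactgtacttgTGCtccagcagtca
TRBV24, chr6:41218517-41218554: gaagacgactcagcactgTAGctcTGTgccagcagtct
TRBV30, chr6:41281953-41281990: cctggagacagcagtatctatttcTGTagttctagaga
The TAG codon of TRBV24 (41218535 to 41218537) is 2 codons before the cysteine codon. It lies outside the CDR3, so a mark in the deposited CDR3 cannot show it, and an unmarked TRBV24 sequence is not thereby a working chain. TRBV21 is annotated as a V gene, but its start codon is annotated in the second exon of the 2-exon transcript and its other transcript has none.

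The CDR3s that the authors list carry the imprint of these ends. In TRBV23, 80.7% of 714 unmarked clonotypes began with the residues CSS, and in TRBV30 78.7% of 494 did, against at most 1.14% in any other TRBV gene. A clonotype is a TRBV gene, a TRBJ gene and an unmarked CDR3 amino acid sequence, counted once per library. At the fourth residue, CSSS stood in 69.7% of TRBV23 and 11.7% of TRBV30 clonotypes, and CSSR in 6.58% and 49.6%. TRBV21 and TRBV24 began with CASS in 84.4% of 45 and 80.7% of 88 clonotypes, as most other TRBV genes do. The same TRBJ gene and CDR3 stood under another TRBV gene with more reads in the same library for 13 of the 88 TRBV24 clonotypes (14.8%, the highest share of the 23 genes) and 4 of the 45 TRBV21 clonotypes (8.89%). For TRBV23 this held for 2 of 714, and for TRBV30 for 0 of 494. The rank of TRBV24 depends on the rule of more reads. Whatever the reads under the other gene, 19 of its 88 clonotypes were shared. TRBV15 (2243 of 9551) and TRBV26 (1597 of 7068) then had larger shares, and TRBV12-1 (2367 of 10948) a barely larger one. Which V gene such shared sequences come from is uncertain.

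The libraries held 44472 to 145211 reads, of which 4.45% to 6.62% were marked, and 1 read stood for 0.000737% to 0.00236% of a library's unmarked reads. A count of 0 allows up to 3 reads, which is 0.00221% of unmarked reads in spleen 2 and 0.00709% in distant tumor 2. The protocol names no molecular identifiers, so a read is not a molecule, and intervals (Wilson, 95%, for shares) cover counting error only. Reads come from bulk tissue RNA, in which fewer T cells with a gene and less TCR RNA per cell cannot be told apart.

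TRBV23, TRBV30, TRBV24 and TRBV21 were the 4 least used of the 23 genes by mean share of unmarked reads, at 0.390% ± 0.245, 0.326% ± 0.170, 0.0358% ± 0.0379 and 0.00834% ± 0.0104 (SD, n = 6 libraries). This low use is a description, since the genes were picked for it. Each of the 4 was below all 19 other genes in 6 of 6 libraries. The least used of the others in a library took between 0.859% and 2.25% of unmarked reads, and the most used of the 4 took between 0.243% and 0.846%. Of the neighbors along the chromosome, TRBV19, TRBV20, TRBV26, TRBV29 and TRBV31 took 4.10%, 4.03%, 3.39%, 5.47% and 3.58% on average. TRBV26 and TRBV29 lie between TRBV24 and TRBV30 on the chromosome. In the order of the 4, TRBV23 was above TRBV30 in 4 of 6 libraries and their ranges overlapped. TRBV30 was above TRBV24 in every library, without overlap (lowest TRBV30 share 0.137%, highest TRBV24 share 0.109%). TRBV24 was above TRBV21 in 6 of 6 libraries, with overlapping ranges.

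**Figure D1:**
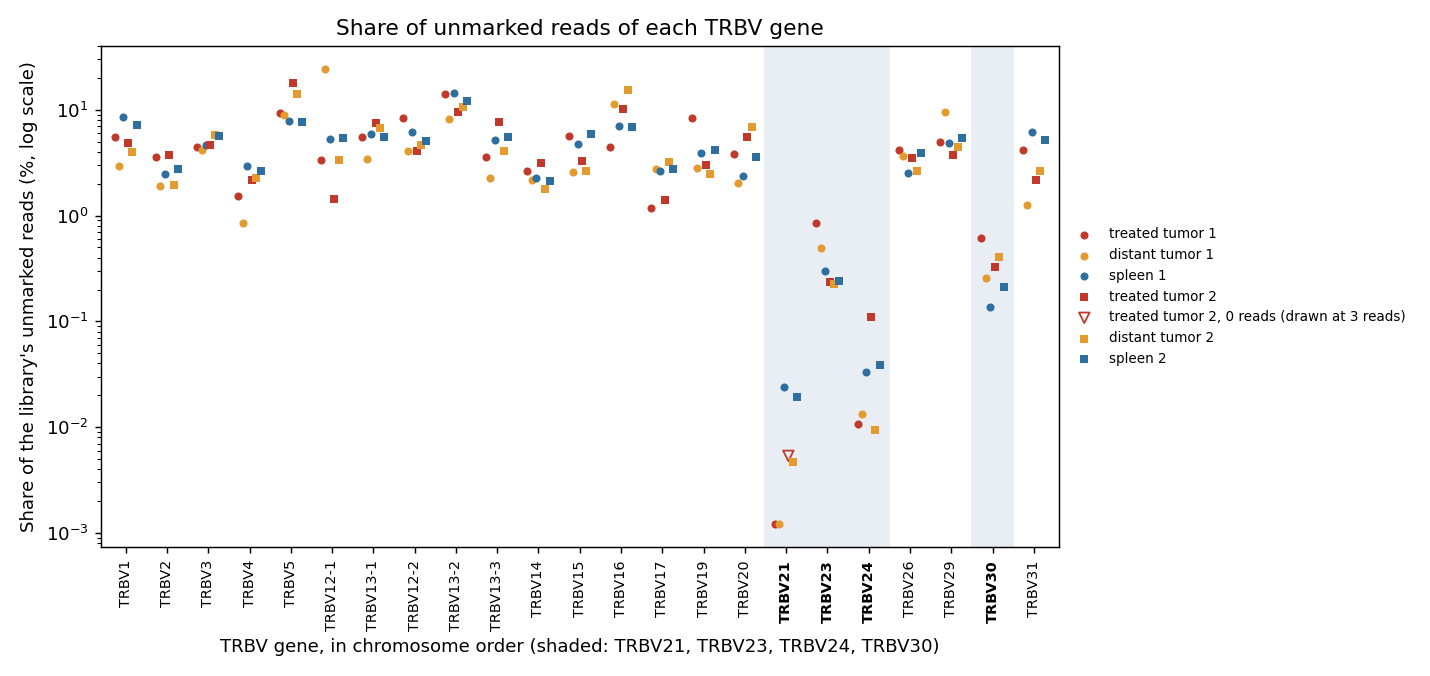
Share of each library's unmarked reads (%, log scale) for the 23 TRBV genes in chromosome order; points are libraries, colored by tissue and shaped by number, and the open triangle marks 0 reads, drawn at the 3-read limit. The 4 shaded genes lie at or below 0.846%, under every other gene in every library.

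TRBV23 had 704 unmarked reads in treated tumor 1 (0.846%, interval 0.786% to 0.911%), 407 in distant tumor 1 (0.495%), 289 in spleen 1 (0.298%), 132 in treated tumor 2 (0.235%), 95 in distant tumor 2 (0.224%) and 329 in spleen 2 (0.243%). Both tumors numbered 1 stood high, and the other 4 libraries lay close together, so tumors and spleens overlapped. TRBV30 had 513 unmarked reads in treated tumor 1 (0.617%, interval 0.566% to 0.672%), 211 in distant tumor 1 (0.257%), 133 in spleen 1 (0.137%), 184 in treated tumor 2 (0.328%), 172 in distant tumor 2 (0.406%) and 286 in spleen 2 (0.211%). Its 4 tumor shares were all above both spleen shares. Without overlap between tumors and spleens stood 6 of the 23 genes, 26.1%, TRBV30 and TRBV21 among them.

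TRBV21 had 1 unmarked read in treated tumor 1, 1 in distant tumor 1, 23 in spleen 1 (0.0237%), 0 in treated tumor 2, 2 in distant tumor 2 (0.00473%) and 26 in spleen 2 (0.0192%). Both spleens were above all tumors, but the tumor values rest on 4 reads in all. Over pooled reads the spleens held 49 against 4, a share 13.9 times that of the tumors (exact 95% interval 5.09 to 53.0, counting error only). TRBV24 had 9 unmarked reads in treated tumor 1 (0.0108%), 11 in distant tumor 1 (0.0134%), 32 in spleen 1 (0.0330%), 61 in treated tumor 2 (0.109%), 4 in distant tumor 2 (0.00945%) and 53 in spleen 2 (0.0391%). Treated tumor 2 stood apart, and the other 3 tumors lay below both spleens.

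Usage was compared with edgeR's quasi-likelihood test on unmarked reads over all 23 TRBV genes, with Benjamini-Hochberg adjustment. A call needs an adjusted p under 0.05. Between treated and distant tumors no gene of 23 was called (0.0%; 3 at an unadjusted p under 0.05), while DESeq2 called 1 gene, TRBV17, which is none of the 4 (4 at an unadjusted p under 0.05). TRBV24 differed by 2.32 on the log2 scale (SE 1.14, edgeR adjusted p = 0.313), TRBV23 by 0.58 (SE 0.67, adjusted p = 0.533), TRBV30 by 0.52 (SE 0.47, adjusted p = 0.517) and TRBV21 by -1.67 (SE 1.78, adjusted p = 0.533). The median of the 4 was 0.55 and that of all 23 genes 0.35, and 3 of the 4 were above that median. The TRBV24 value rested on treated tumor 2: without it the difference was -0.13, and without treated tumor 1 it was 3.19 (adjusted p = 0.0092).

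Between tumors and spleens no gene of 23 was called either (0.0%; 4 at an unadjusted p under 0.05, and 0 called by DESeq2 with 5 at that level). TRBV30 was higher in tumors by 1.18 on the log2 scale (SE 0.43, edgeR adjusted p = 0.185), and by 0.63 without the leading clonotype of each gene in each library (edgeR adjusted p = 0.322). TRBV21 was lower in tumors, with a difference of -3.82 (SE 1.00, edgeR adjusted p = 0.185). TRBV23 differed by 0.71 (SE 0.60, adjusted p = 0.597), but by 0.11 without treated tumor 1 and 0.37 without distant tumor 1, and TRBV24 by -0.46 (SE 0.90, adjusted p = 0.954). The median of the 4 was 0.13 against -0.06 over all 23 genes, with 2 of the 4 above it. Of the 5 neighbors none was called, and TRBV31 had the largest difference, -1.19 (SE 0.41, adjusted p = 0.185).

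Both TRBV21 and TRBV30 passed the threshold in some, not all, of their alternative settings, of which TRBV21 had 13 and TRBV30 had 16. Over all genes, 2 of 21 were called with each clonotype counted once, and 1 of 23 with marked reads counted too. With each clonotype counted once, TRBV30 was higher in tumors by 1.28 (edgeR adjusted p = 0.0401), at 0.453% ± 0.0855 of clonotypes in tumors (SD, n = 4) and 0.186% ± 0.0430 in spleens (SD, n = 2). Of the 23 genes, 9 (39.1%) had clonotype shares that did not overlap between tumors and spleens, TRBV21, TRBV23 and TRBV30 among them. With marked reads counted too, TRBV21 was lower in tumors by -3.85 (adjusted p = 0.00517). TRBV21 was also lower in tumors without treated tumor 1 (-5.09) and without treated tumor 2 (-3.52). TRBV24 was lower in tumors without treated tumor 2 (-1.66). Such fits leave 1 treated tumor, so only the size of the difference is given. The tumors of a mouse are not independent samples, and these p-values measure the spread between libraries of 2 mice.

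The genes with the most similar course over the 6 libraries were given by Pearson's r of log2(share in percent + 0.001), as a description over 6 points that share mouse and depth. They were TRBV19 (0.723) and TRBV12-2 (0.639) for TRBV23, TRBV13-3 (0.817) and TRBV14 (0.628) for TRBV24, and TRBV20 (0.568) and TRBV23 (0.476) for TRBV30. TRBV21 had too few reads for this.

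Marked sequences set TRBV24 apart. In all 6 libraries together, 84.8% of TRBV24 reads and 81.4% of its 474 listed sequences carried a mark, the highest share of the 23 genes. TRBV21 followed with 31.2% of 77 reads, then TRBV31 with 12.9%, TRBV4 with 12.3% and TRBV30 with 9.37%. TRBV23 had the lowest share over these pooled reads, 3.69%, but of its listed sequences 7.75% were marked, and TRBV13-3 (7.12%), TRBV13-2 (7.55%) and TRBV26 (7.66%) had less. Of 950 marked TRBV24 reads, 941 (99.1%) carried * and 9 the . mark. The 4 genes together made up 0.492% to 1.48% of a library's unmarked reads but 1.91% to 11.8% of its marked reads.

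No label or file header says what the marks stand for, so they were compared with the germline J genes. Each of the 14086 listed sequences with * had exactly 1 run of it, 1 symbol long in 6882 and 2 long in 7204. In 9481 the run stood just before the last phenylalanine. There the 3 residues before the run matched the J gene read in a shifted frame in 73.8% and in its own frame in 0.897%. For TRBV24 210 sequences were of this form, and the shares were 84.8% and 0%. The . mark replaced single residues. Of 7243 sequences with 1 such mark, 1488 equalled an unmarked clonotype of the same library in all other residues, and in 96.9% of these the missing residue has a codon 1 base away from a stop codon. Of all residues in the middle of unmarked CDR3s, 63.4% have one.

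By library, the marked share of TRBV24 reads was 96.5% of 260 in treated tumor 1 (Wilson 93.6% to 98.2%), 89.7% of 107 in distant tumor 1, 81.3% of 171 in spleen 1, 80.6% of 314 in treated tumor 2, 82.6% of 23 in distant tumor 2 and 78.4% of 245 in spleen 2. All 6 lay above 78%, while the other genes of the same libraries together had 4.04% to 6.50%. The highest value of any gene outside the 4 was 31.2%, for TRBV31 in distant tumor 1. TRBV24 minus the other genes was 79.7 percentage points on average, positive in 6 of 6 libraries (exact sign-flip permutation test, two-sided, p = 0.03125, adjusted p = 0.0764 over 22 genes). This p is the smallest that 6 libraries can give, and none of the 22 genes was called (0.0%; 9 at an unadjusted p under 0.05). With 6 libraries a sign-flip p passes after adjustment only if most tested genes reach this smallest value. No gene can be called by itself in any sign-flip comparison given here. The test treats each library as a separate unit, although libraries of the same mouse are not independent samples. The same limit holds for every sign-flip and tissue permutation p-value given here. The next largest difference was that of TRBV31, 10.1 points. Tumors (87.4% ± 7.27, SD, n = 4) and spleens (79.8% ± 2.06, SD, n = 2) overlapped (exact permutation p = 0.2, two-sided, where the smallest possible p is 0.0667).

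**Figure D2:**
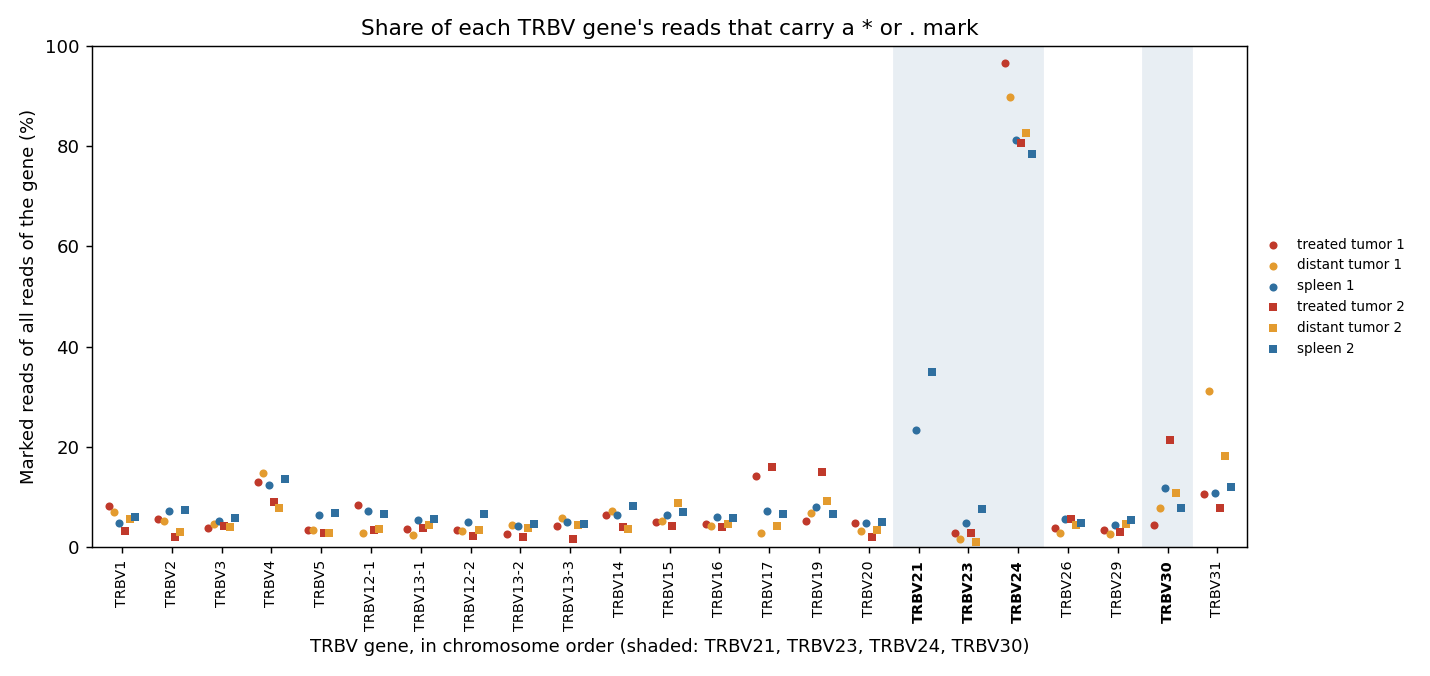
Marked reads as a share of all reads of a TRBV gene (%) in each library with at least 10 reads of the gene, in chromosome order. TRBV24 lies between 78.4% and 96.5%, and TRBV21, which reached 10 reads in the spleens only, at 23.3% and 35.0%.

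On average the marked share of TRBV23 lay below that of the other genes together, and that of TRBV30 above it. Other genes lay further out by mean difference: TRBV13-2 (-1.91 points) below TRBV23, and TRBV31 (10.1) and TRBV4 (6.62) above TRBV30. Marked reads were 2.90%, 1.69%, 4.93%, 2.94%, 1.04% and 7.58% of TRBV23 reads in the treated tumor, distant tumor and spleen of mouse 1 and then of mouse 2, below the other genes in 5 of 6 libraries. The mean difference was -1.82 points (exact sign-flip permutation p = 0.0625, adjusted p = 0.115). Every tumor value lay below both spleen values, with 2.14% ± 0.935 (SD, n = 4) against 6.26% ± 1.87 (SD, n = 2; exact permutation p = 0.0667, adjusted p = 0.244). Of the 22 genes tested, 8 (36.4%) had marked shares that did not overlap between the tissues, and the median difference over the 22 was -1.41 points. Whole libraries had 4.45% to 5.25% marked reads in tumors and 6.32% to 6.62% in spleens. Counted as distinct sequences, however, TRBV23 had a higher marked share in tumors than in spleens by 1.44 points, so the order of tissues depends on the unit. For TRBV30 the marked shares were 4.47%, 7.86%, 11.9%, 21.4%, 10.9% and 7.74% in the same order, above the other genes in 5 of 6 libraries, by 5.40 points on average (exact sign-flip permutation p = 0.0625, adjusted p = 0.115). Treated tumor 1 was the exception. The TRBV30 difference was 3.08 points without treated tumor 2, and 3.09 points by distinct sequences (exact sign-flip permutation test, adjusted p = 0.364). TRBV21 had too few tumor reads for a value, and in the spleens 7 of 30 and 14 of 40 of its reads were marked (23.3% and 35.0%).

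The marked TRBV24 reads came from many sequences, a small number of them large. They held 384 distinct combinations of TRBJ gene and CDR3, 382 of them in 1 library. CASSLP**SSAETLYF (TRBJ2-3) had 167 reads in treated tumor 2, 53.2% of the TRBV24 reads of that library and 6.40% of all its marked reads. It had 1 read in distant tumor 1 and 0 in the other 4. In treated tumor 1 CASSLGLGGC*EQFF (TRBJ2-1) had 87 reads and CASSWDRKHRSL*F (TRBJ1-1) 59, and in distant tumor 1 CASSLDREKIIRPS**F (TRBJ1-6) had 54, 50.5% of the TRBV24 reads there. The largest marked TRBV24 sequences of spleens 1 and 2 had 3 reads each. Distant tumor 2 had 6 at most. The largest marked TRBV30 sequence was CSSRDGNFQRKII*F (TRBJ1-4) with 21 reads in treated tumor 2, and the largest of TRBV23 was CSSSQSPESKHLV*F (TRBJ2-4) with 10 in treated tumor 1.

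Unmarked reads of TRBV23 and TRBV30 were led by different clonotypes in mouse 1 and mouse 2. In TRBV23, a clonotype with TRBJ1-4 and a CDR3 of 16 residues had 300 reads in treated tumor 1, 224 in distant tumor 1 and 17 in spleen 1, which was 42.6%, 55.04% and 5.88% of the TRBV23 reads there. It had none in the libraries numbered 2. It ranked 33rd among all clonotypes of treated tumor 1 and 28th in distant tumor 1. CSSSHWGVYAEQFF (TRBJ2-1) led in distant tumor 2 with 14 reads and had 3 in spleen 2. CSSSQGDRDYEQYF (TRBJ2-7) had 22 in treated tumor 1 and 1 in distant tumor 1. In treated tumor 2 the leading TRBV23 clonotype had 36 reads, and in spleen 2 it had 7.

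In TRBV30, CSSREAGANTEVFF (TRBJ1-1) had 405 reads in treated tumor 1 (78.9% of its TRBV30 reads, 0.487% of all unmarked reads, rank 19) and 100 in distant tumor 1 (47.4%), and none elsewhere. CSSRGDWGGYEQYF (TRBJ2-7) had 29 reads in treated tumor 2, 48 in distant tumor 2 and 16 in spleen 2. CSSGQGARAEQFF (TRBJ2-1) had 34, 27 and 9 there, and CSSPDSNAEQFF (TRBJ2-1) 54, 7 and 1. These 3 clonotypes were found in all libraries numbered 2 and in none numbered 1. Without its leading clonotype, TRBV30 took 0.130% of unmarked reads in treated tumor 1 and 0.135% in distant tumor 1, near the 0.128% of spleen 1. That clonotype was picked as the gene's largest in each library, with 9 reads in spleen 1. Its removal therefore had to lower these tumor shares more than that of spleen 1. In mouse 2 the shares without the leading clonotype were 0.232%, 0.293% and 0.199% in treated tumor, distant tumor and spleen. The treated-against-distant difference of TRBV30 was -0.37 without leading clonotypes (edgeR adjusted p = 0.818).

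**Figure D3:**
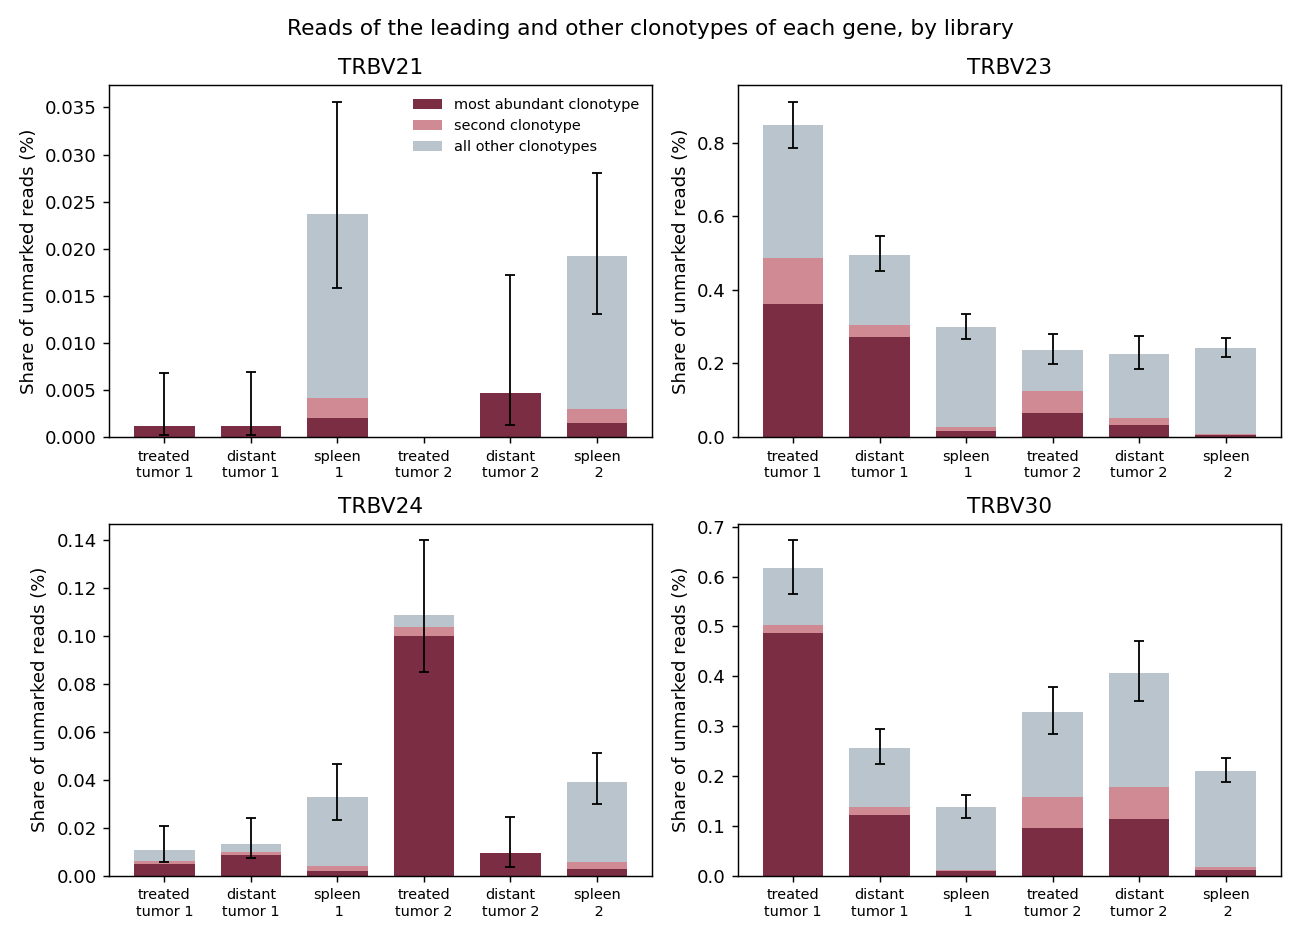
Share of a library's unmarked reads (%) taken by each gene, split into its most abundant clonotype, the second and all others; bars on top are Wilson 95% intervals of the total, and each panel has its own axis. The leading clonotype fills 78.9% of TRBV30 in treated tumor 1 and 91.8% of TRBV24 in treated tumor 2, and under 10% of each gene in both spleens.

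TRBV24 clonotypes were small except 1. A clonotype with TRBJ2-3 and a CDR3 of 17 residues had 56 of the 61 unmarked TRBV24 reads in treated tumor 2 (91.8%), and the other 4 TRBV24 clonotypes there each differ from it by 1 residue and had at most 2 reads. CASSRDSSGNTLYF (TRBJ1-3) had 4 reads in treated tumor 1 and 7 in distant tumor 1, and was the only TRBV24 clonotype in more than 1 library. A TRBJ2-7 clonotype of 15 residues had all 4 unmarked TRBV24 reads of distant tumor 2. In spleen 2 the largest had 4 reads, among them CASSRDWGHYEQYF (TRBJ2-7) and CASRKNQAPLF (TRBJ1-5). No TRBV21 clonotype had more than 2 reads. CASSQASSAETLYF (TRBJ2-3) had 2 in distant tumor 2, a TRBJ2-7 clonotype of 16 residues 1 in treated tumor 1, and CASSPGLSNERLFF (TRBJ1-4) and a TRBJ1-6 clonotype of 17 residues 2 each in spleen 1. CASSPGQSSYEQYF (TRBJ2-7) and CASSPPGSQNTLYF (TRBJ2-4) had 2 each in spleen 2.

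Most clonotypes of the 4 genes were found in 1 library. Sharing was not counted for the other TRBV genes, so it is not shown to be particular to the 4. Of all unmarked clonotypes of a library, 72.0% (distant tumor 2) to 82.6% (treated tumor 2) had 1 read. Of 693 distinct TRBV23 clonotypes 20 were in 2 or 3 libraries, of 474 TRBV30 clonotypes 16, of 87 TRBV24 clonotypes 1 and of 45 TRBV21 clonotypes 0. All 474 TRBV30 clonotypes and 688 of 693 TRBV23 clonotypes were seen in libraries of 1 number only. Treated and distant tumor 1 shared 12 TRBV23 clonotypes of the 105 and 80 they held. These carried 47.6% and 61.4% of the TRBV23 reads. They shared 6 TRBV30 clonotypes, with 80.3% and 53.6% of the TRBV30 reads. Treated and distant tumor 2 shared 5 TRBV30 clonotypes (73.9% and 58.7% of reads) and 0 TRBV23 clonotypes. Spleen 2 shared 7 TRBV30 clonotypes with distant tumor 2 and 5 with treated tumor 2. The latter carried 85.9% of the reads there and 12.2% in the spleen. Spleen 1 shared 0 TRBV30 clonotypes with treated tumor 1 and 1 with distant tumor 1. Spleen 1 and spleen 2 shared 4 TRBV23 clonotypes and no TRBV30 clonotype.

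Reads per clonotype were 2.11 to 6.70 for TRBV23 in tumors and 1.28 to 1.44 in spleens, and 3.51 to 7.13 and 1.32 to 1.43 for TRBV30. Whole libraries differed in the same way, so this is not particular to these genes. Unmarked reads and clonotypes were 83171 and 12761 in treated tumor 1 and 42320 and 10347 in distant tumor 2. In spleens 1 and 2 they were 96907 and 64726, and 135599 and 92233. Against the other TRBV genes of the same library the log2 difference was -0.37 for TRBV23 (lower in 5 of 6 libraries, exact sign-flip permutation p = 0.0625, adjusted p = 0.263) and -0.19 for TRBV30 (lower in 5 of 6, p = 0.0938 by the same exact test, adjusted p = 0.281). None of 21 genes was called (0.0%; 4 at an unadjusted p under 0.05). TRBV21 and TRBV24 had fewer than 10 clonotypes in tumors and were not tested in this or the following comparisons.

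Part of the tumor clonotypes were near variants, 1 residue away from a clonotype of the same TRBV gene, TRBJ gene, length and library with at least 10 times the reads. They were 33 of 105, 32 of 80, 15 of 25 and 1 of 45 TRBV23 clonotypes in both tumors 1 and both tumors 2 (treated first), and 22 of 72, 8 of 42, 10 of 30 and 9 of 49 TRBV30 clonotypes. Near variants were not particular to these genes. In the pooled tumors, 30057 of 41380 clonotypes of the TRBV genes outside the 4 were left without near variants. For TRBV23 174 of 255 were left, and for TRBV30 144 of 193. Neither spleen held any near variant of the 4 genes, but the rule could hardly find one there. It needs a clonotype of at least 10 reads, and only TRBV23 in spleen 1 (2 clonotypes) and TRBV30 in spleen 2 (1 clonotype) had such. The 0 is therefore no contrast between tissues. The leading TRBV30 clonotype had 21 near variants with 29 reads in treated tumor 1, and the leading TRBV23 clonotype 20 with 24 reads in distant tumor 1. Whether they are T cells or copying errors was not tested. With near variants left out and each clonotype counted once, TRBV30 was still higher in tumors than in spleens by 1.31 (edgeR adjusted p = 0.0316).

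TRBJ shares of TRBV23 and TRBV30 ranged widely between libraries, over 25 to 258 clonotypes each. The 3 leading partners of TRBV23 were TRBJ2-7 (16.8% of clonotypes), TRBJ1-4 (16.7%) and TRBJ2-5 (14.6%), and those of TRBV30 were TRBJ2-1 (22.3%), TRBJ1-1 (22.1%) and TRBJ2-7 (18.8%). In the 19 other genes TRBJ2-7 took 19.4%, TRBJ2-5 12.6% and TRBJ2-1 11.2%. TRBJ1-4 took 36.5% of TRBV23 clonotypes in pooled tumors and 5.66% in pooled spleens, and TRBJ1-1 took 42.5% and 8.97% of TRBV30 clonotypes. These partners are those of the leading clonotypes of mouse 1, and 34 of the 93 TRBV23-TRBJ1-4 and 29 of the 82 TRBV30-TRBJ1-1 tumor clonotypes were near variants. With near variants left out the pooled tumor shares were 33.9% and 36.8%. Pooling hides a wide spread between libraries. TRBJ1-4 took from 0% to 57.5% of TRBV23 clonotypes in a library, and TRBJ1-1 from 0% to 81.9% of TRBV30 clonotypes. The highest values were in libraries numbered 1, so the pooled shares do not describe every tumor. Pooled over both spleens, TRBV30 had TRBJ2-1 in 21.6% of 301 clonotypes, against 11.05% in the other genes, a difference that was not tested. For TRBV21 and TRBV24 the leading partner was TRBJ2-7, with 26.7% of 45 and 20.5% of 88 clonotypes. TRBJ2-5 (11.1%) and TRBJ1-6 (8.89%) followed for TRBV21, and TRBJ2-3 (13.6%) and TRBJ2-5 (10.2%) for TRBV24.

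**Figure D4:**
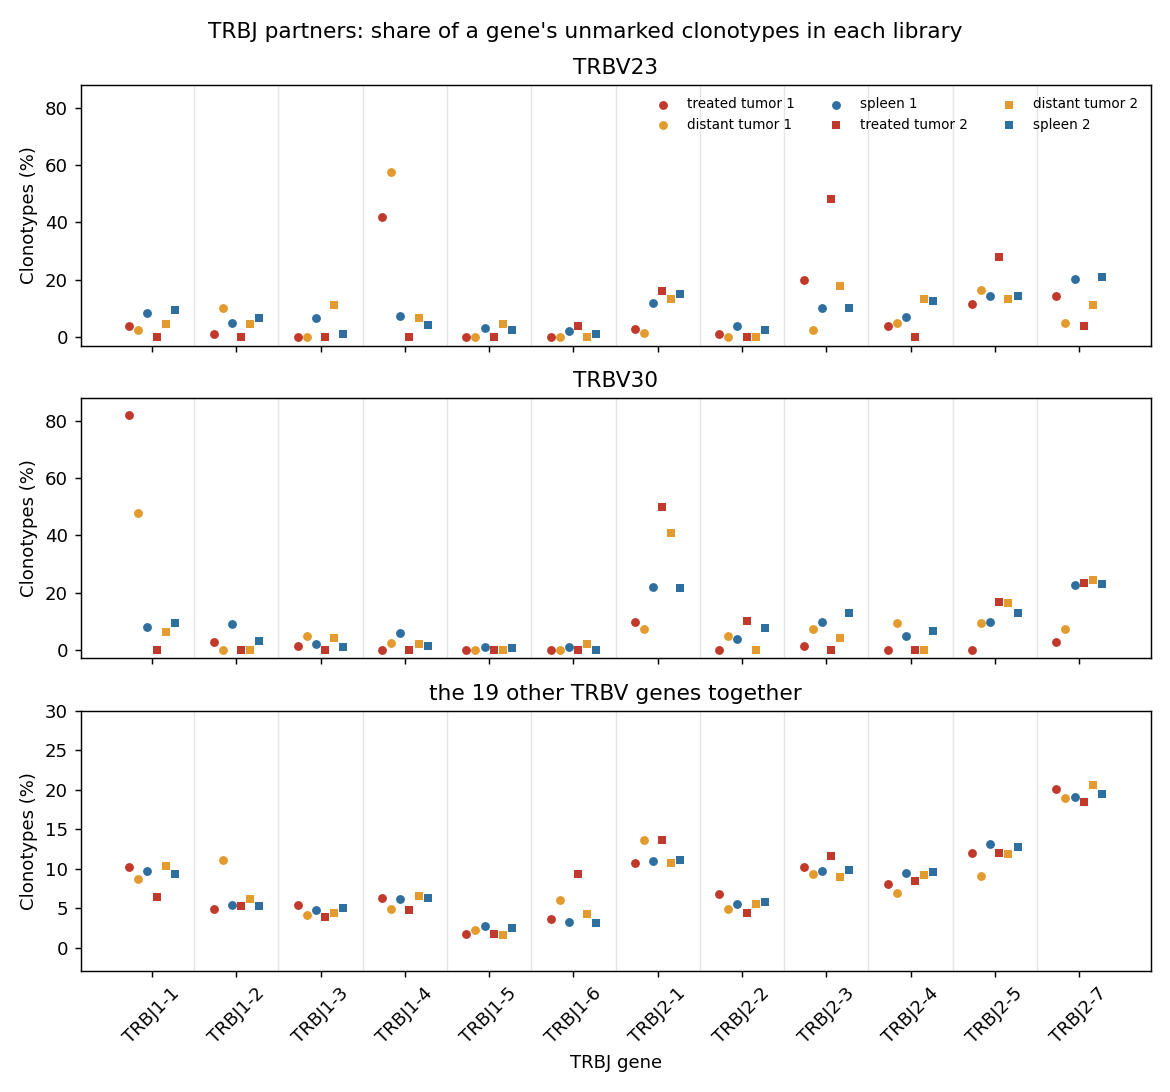
Share of unmarked clonotypes (%) with each TRBJ gene in each library, for TRBV23, TRBV30 and the 19 other TRBV genes together (the lowest panel has a narrower axis). TRBV23 with TRBJ1-4 reaches 57.5% and TRBV30 with TRBJ1-1 reaches 81.9%, in libraries numbered 1, while no TRBJ gene passes 20.6% in the other genes.

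The TRBJ1 cluster as a whole was tested because V genes could differ in which J cluster they join. Its share of TRBV30 clonotypes was 86.1% in treated tumor 1, 54.8% in distant tumor 1, 26.7% in spleen 1, 0% of 30 in treated tumor 2, 14.3% in distant tumor 2 and 15.5% in spleen 2. For TRBV23 it was 46.7%, 70.0%, 32.3%, 1 of 25 clonotypes, 31.1% and 24.8% in the same order. The other genes held 31.2% to 37.5% in every library. The mean difference was -0.05 points for TRBV30 (higher in 2 of 6 libraries, exact sign-flip permutation p = 1) and 1.89 for TRBV23 (higher in 3 of 6, exact p = 0.844), and of 21 genes none was called (0.0%; 6 at an unadjusted p under 0.05). For TRBV30 both tumors of mouse 1 lay above the other genes and the other 4 libraries below.

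The CDR3s of TRBV30 clonotypes were on average shorter than those of the other genes in every library. The adjusted threshold was not passed, but with 6 libraries no gene can pass it by itself. Their mean length was 13.9 residues in treated tumor 1, 13.4 in distant tumor 1, 12.9 in spleen 1, 13.2 in treated tumor 2, 13.2 in distant tumor 2 and 13.1 in spleen 2, while the other genes had 13.9 to 14.0. TRBV30 was below them in 6 of 6 libraries, by -0.63 residues on average (SD 0.32; exact sign-flip permutation p = 0.03125, adjusted p = 0.0656), and none of 21 genes was called (0.0%; 10 at an unadjusted p under 0.05). Only TRBV20 had a larger difference in that direction (-1.13 residues). The germline V exons of TRBV30 and TRBV20 are also the shortest after the cysteine, with 14 bases from the first base of its codon to the end of the exon, against 15 to 21 in the other 21 genes and 17 in TRBV21, TRBV23 and TRBV24. These lengths are those of the transcript that reaches furthest past the cysteine. A second transcript of TRBV31 has 14 such bases too, and a second one of TRBV21 has 15. Among tested genes with 17 such bases the CDR3 length difference ran from -0.34 residues (TRBV15) to 0.69 (TRBV5). For TRBV3, with 21, it was -0.02. Whether the exon end bears on CDR3 length was not tested. TRBV23 had 14.7, 15.1, 13.9, 13.7, 14.3 and 13.9 residues in the same order of libraries, a difference of 0.35 residues (higher in 5 of 6, exact p = 0.156, adjusted p = 0.193). Its high values were those of both tumors numbered 1, where the leading clonotype has 16 residues and near variants share its length.

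**Figure D5:**
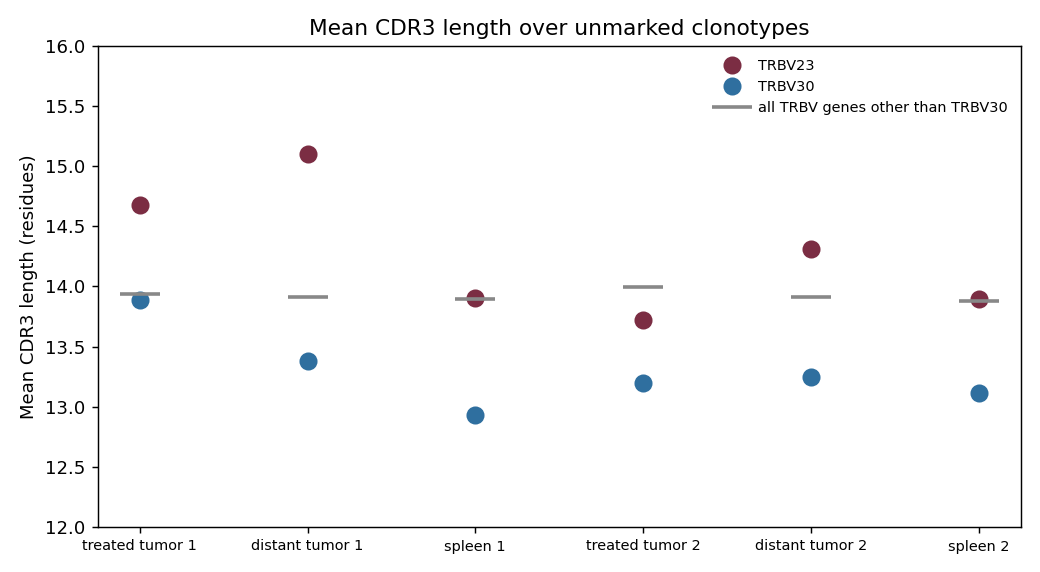
Mean CDR3 length (residues) over the unmarked clonotypes of TRBV23 and TRBV30 in each library, with the mean of all TRBV genes other than TRBV30 as a bar; the axis starts at 12. TRBV30 lies below the bar in 6 of 6 libraries.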

How the data were processed

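TCR-β sequences were read from total RNA of 6 libraries by adaptor ligation, PCR and paired 300 bp MiSeq reads, per the labels' protocols. The authors deposited, per library, a TRBV gene, a TRBJ gene, a CDR3, a whole-number read count and a percent. The deposited percent matched the count over the library's unmarked total to within 0.00499 points and was not used further. No source used here names the aligner or germline reference. Groups came from sample titles. The 4 genes, lists and rules were chosen with earlier results of these data known. Named clonotypes are each gene's most abundant per tissue and the 3 in most libraries, others being named after their values were seen. Usage was tested with edgeR 4.0.16 (R 4.3.3; filterByExpr, library total, 3 groups in 1 fit, 3 residual degrees of freedom), with DESeq2 1.42.0 as an alternative. Gene-against-others differences used exact sign-flip permutation over 6 libraries with at least 10 reads or clonotypes. Libraries of the same mouse were treated as independent in the permutation tests. Tests were checked on simulated data. There the changed genes were drawn only from genes used more than these 4, and the libraries were independent. The check therefore does not cover genes this rare or libraries that share a mouse. Same-numbered libraries were taken as 1 mouse, from the titles and the stated 2 mice. Deviations of usage from group means correlated between them by 0.242 (treated and distant tumor), 0.225 (treated tumor and spleen) and -0.0154 (distant tumor and spleen) over 23 genes. Alternatives concerned tool, scaling, filter, counting unit, marks, near variants, block and left-out libraries.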

Additional observations from a re-analysis of the deposited data

Results flagged for a closer look

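The TRBV24 share of unmarked reads in treated tumor 2, 0.109%, stood apart from the other 3 tumors, which lay between 0.00945% and 0.0134%. Its gap to the nearest tumor was 0.960 of the range of the 4 values, above the limit of Dixon's test at the 95% level. Chance alone passes that limit in about 1 of 20 such groups. A single clonotype with TRBJ2-3 and a CDR3 of 17 residues gave 56 of the 61 reads, and without it the share was 0.00893%.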

How the results depend on the processing

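The count of genes called for usage was 0 for both contrasts and stayed 0 with TMM scaling, with no filter and with the replicate block. Treated against distant tumors, 1 gene was called with DESeq2, with clonotypes counted once and with clonotypes counted once and near variants left out, and 0 to 1 with a library left out. Tumors against spleens, 2 were called with clonotypes counted once, 1 with marked reads counted too, 3 without leading clonotypes, 3 with clonotypes counted once and near variants left out, and 0 to 2 with a library left out. TRBV21 and TRBV24 fell under the count filter with clonotypes counted once. The settings for leading clonotypes, near variants, shared CDR3s and marked reads alone were chosen after seeing the data. The setting without leading clonotypes itself removes much of a gene with few clonotypes, such as TRBV24 in tumors. The other 5 comparisons called 0 genes under every setting, which says nothing about stability where no call was possible: the smallest p is 0.0667 for tumors against spleens, and 0.0625 for sign flips over 5 libraries. Over 6 libraries the smallest sign-flip p is 0.03125, which passes after adjustment only if most tested genes reach it.

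With the replicate block the log2 differences of TRBV21, TRBV23, TRBV24 and TRBV30 were -1.66, 0.47, 1.83 and 0.55 (treated against distant) and -3.82, 0.50, -0.59 and 1.20 (tumors against spleens), and the block changed no call. Another scaling moved the median of all genes, by -0.20 (TMM) and -0.30 (DESeq2) for treated against distant tumors and by 0.22 (DESeq2) for tumors against spleens; the 4 genes kept their side of 0 and of that median.

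Of 217 values of the 4 genes under alternatives, 189 changed neither sign nor side of the threshold (TRBV21, treated against distant without leading clonotypes, was at 0 and has no direction), 9 newly passed it and 19 changed sign, none of these 19 past it. For usage, treated against distant, these were TRBV23 at -0.028 (clonotypes once, near variants left out) and -0.62 (without treated tumor 1; -0.62 to 1.27 over left-out libraries), TRBV24 at -0.13 (without treated tumor 2; -0.13 to 3.19), and TRBV30 at -0.37 (without leading clonotypes) and -0.0089 (without treated tumor 1; -0.0089 to 0.90). Tumors against spleens, they were TRBV23 at -0.34 (marked reads only) and TRBV24 at 0.21 (marked reads counted too) and 0.81 (marked reads only). For marked shares they were TRBV30 at -0.468 points against other genes (. mark only), TRBV23 at 1.44 between tissues (distinct sequences), and TRBV30 at -2.09 and -0.776 (without treated tumor 2 and spleen 2; -2.09 to 3.54). For TRBJ1 shares they were TRBV23 at -0.571 and -4.29 (without treated and distant tumor 1; -4.29 to 7.72) and TRBV30 at 1.47 (reads), 1.00 (without spleen 1), 6.19, 3.70 and 3.14 (without treated tumor 2, distant tumor 2 and spleen 2; -10.8 to 6.19). The cause was not tested. Exact tests over 6 libraries cannot go below 0.03125, and TRBV21 in tumors rests on 4 unmarked reads.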
